A study of Mus musculus with 4 samples.

Results

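Ribosome biogenesis and nucleolar factors were followed through 4 libraries of ribosome footprints from leukaemia stem cells, which can regrow the disease. The members were 35 genes picked by name, and all 35 of them were found among the 16442 rows of the deposited table. The libraries were 2 labelled WT and 2 labelled KO for Rreb1, a zinc finger transcription factor gene, all from the bone marrow of C57BL/6 mice with leukaemia. The genotype of KO replicate 2 is given as Rreb2-KO. It was kept with KO by its title, since the design of the series names no other knockout. The sources used here do not give the oncogene that drives the leukaemia, the deleted part of the gene, the cells it was deleted in or the age of the mice. They call the replicates biological without naming animals, so a p-value rests only on how far these libraries of a group lie apart. It draws on that spread in the gene itself and, through the limma model used below, in other genes of like level.

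Ribosomes are made in the nucleolus. RNA polymerase I copies the ribosomal DNA into a long precursor, small nucleolar RNPs (snoRNPs) guide its methylation and pseudouridylation, and processing factors cut it while the small and large subunits are assembled around it. Growing cells, leukaemia cells among them, make ribosomes at a high rate, and many of the genes for these factors are textbook targets of the transcription factor MYC.

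For each gene the table gives ribosome footprints and the translational efficiency (TE), the ratio of footprints to the RNA of the same lysate. From these the RNA level was derived. Levels are in RPKM, reads scaled to gene length and library depth, which can be compared between genes. Differences are log2 values, KO-labelled minus WT, and "rose" and "fell" are used only for genes with an adjusted p under 0.05 (limma, over all 6384 tested genes). A gene was tested where at least 2 libraries had 20 or more footprint CPM (reads scaled to library depth alone), and 33 of the 35 members met this. Fbl and Rrs1 did not. Nop10 met it through the WT libraries alone, where it is high, so its lower footprints and TE in the KO-labelled libraries, and every p given for them, are in part set by the filter.

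Footprint depth went with the group: 878068 and 656249 assigned reads for WT against 364087 and 274183 for the KO-labelled libraries. Its part in the results was not tested. A member had at least 2 to 1076 footprint reads in a library, and its RNA rested on at least 372 to 13028 reads. Rreb1 itself could not check the labels, since the deleted part of the gene is unknown. Its RNA was 3.33 and 3.25 in WT against 6.1 and 6.93 in the KO-labelled libraries, a difference of 0.81 ± 0.09 (SE, limma adjusted p = 0.000282), and its footprints were 14.1 and 12.8 in WT against 12.9 and 8.19 in the KO-labelled libraries, with 12 to 66 reads. The libraries are therefore called KO-labelled, and every direction below rests on that label. Of the stem and progenitor markers, Hoxa9, Meis1 and Myb lay between 11.5 and 36.5 RPKM of RNA in every library, while the other 4 were higher in both KO-labelled libraries. Cd34 was at 4.41 and 4.71 in WT against 50.5 and 49.8 RPKM, Flt3 at 2.54 and 2.99 against 19.5 and 17.7, Gata2 at 1.32 and 1.3 against 11.4 and 12.2, and Kit at 1.97 and 2.32 against 7.36 and 7.15. The summed RNA of 7 such markers was 85.9 and 85.6 RPKM in WT and 169.9 and 167 RPKM in the KO-labelled libraries. That of 5 myeloid markers was 14631 and 14484 against 8336 and 7278 RPKM, nearly all of it Elane and Lyz2. Itgam overlapped, at 12.8 and 11 against 11.5 and 19.5. The sum of 4 mast cell and basophil markers was 12.2 and 13.4 against 251 and 239.7 (Cpa3 alone 221 and 213, Ms4a2 at most 0.522). That of 5 T and NK markers was 16.5 and 16.7 against 432 and 362, nearly all of it Nkg7, with Cd3e at most 0.302. Erythroid markers (5 genes) summed to 8.93 and 9.11 against 35.5 and 48.6 RPKM, megakaryocyte markers (4) to 1.15 and 1.64 against 20.8 and 22.2 (Itga2b alone 19.7 and 19.6, with Pf4, Gp9 and Ppbp at most 1.79), stroma markers (3 of 4 in the table) to 1.24 and 1.48 against 23.7 and 26.7 (Pdgfrb alone 19 and 21), and B cell markers (2 of 5) to 43 and 40.5 against 28.3 and 26.4, where Cd79b was lower by a log2 difference of -0.72 and Cd79a higher by 0.76. Of the erythroid sum Hbb-bt made up 31 and 43.6 RPKM in the KO-labelled libraries. No listed marker that was in the table was at 0 in any library. In bulk samples fewer cells of a type and less RNA per cell cannot be told apart, and the part of cell composition in the results was not tested.

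RNA of many members was modestly higher in the KO-labelled libraries. Of the 33 tested members 15 rose, 3 fell and 15 did not pass. Over all tested genes 60.8% passed, 33.1% higher and 27.7% lower, so 15 of 33 was above the share of all genes that rose and 3 of 33 below the share that fell. The median RNA difference of the members was 0.201, against 0.043 for all tested genes, and 24 of 33 lay above 0, against 53.8% of all tested genes. The members that rose were Nop10, Wdr12, Npm1, Polr1c, Gnl3, Polr1a, Ncl, Nip7, Nhp2, Nop56, Rrp9, Nop14, Nob1, Nolc1 and Rrp1b. Those that fell were Dkc1, Pes1 and Bms1. For 21 members both KO-labelled libraries lay above both WT libraries, and for 7 both lay below (44.4% and 37.6% of all tested genes). The count depended in part on which libraries were kept. A fit without 1 library leaves 1 in its group, and without WT replicate 1 fewer of all tested genes passed in RNA as well. Without WT replicate 1, Nhp2, Nip7, Nob1, Nolc1, Rrp1b and Rrp9 no longer passed as higher. Bms1, Dkc1 and Pes1 no longer passed as lower without WT replicate 2. With single libraries left out, the difference ran from -0.369 to -0.289 for Dkc1, -0.367 to -0.291 for Pes1 and -0.275 to -0.171 for Bms1. With all 4 libraries 3 members were lower at an unadjusted p under 0.05 (limma), against 29.4% of all tested genes. Nob1, Nop14 and Rrp1b no longer passed as higher without WT replicate 2, Nob1, Rrp1b and Rrp9 without KO replicate 1, and Rrp1b without KO replicate 2. Bms1 passed in 5 of the 13 alternative fits.

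**Figure D1:**
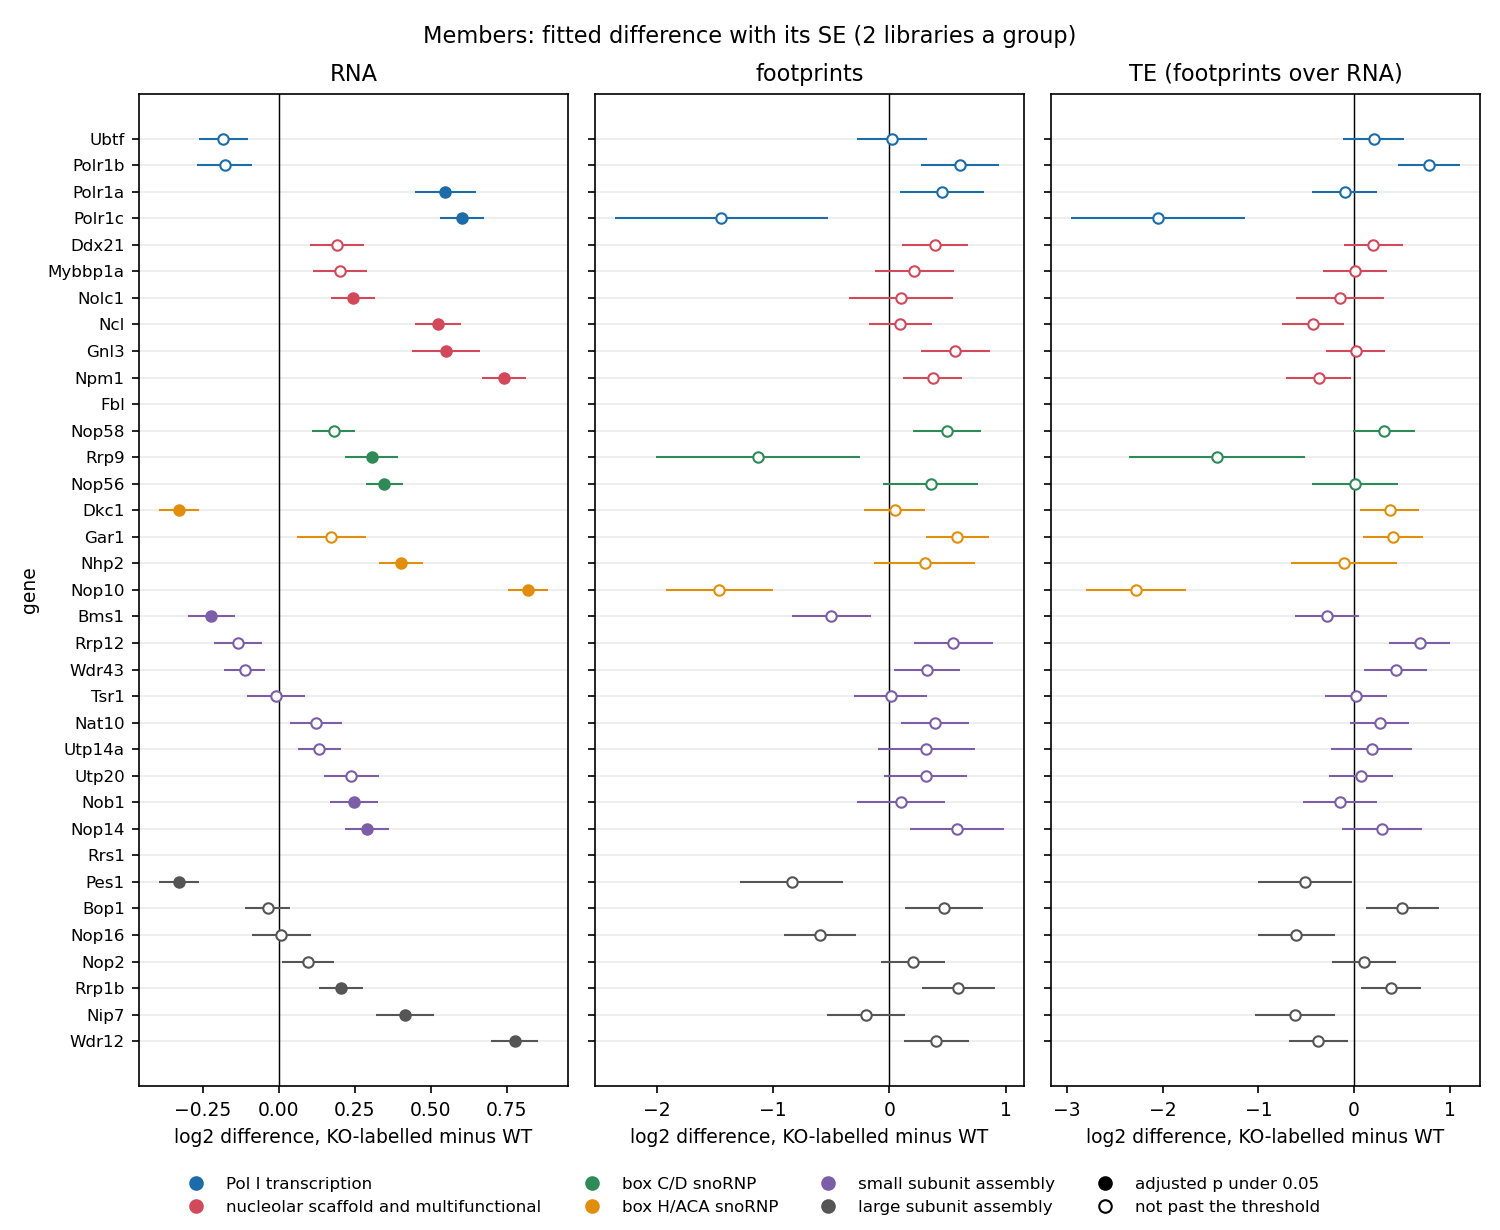
Fitted log2 difference, KO-labelled minus WT, in RNA, footprints and TE (3 panels with separate x axes) for each member, grouped by role; bars are SE (2 libraries a group) and filled points passed the threshold. In RNA 15 filled points lie right of 0 and 3 left of it, and no point is filled in footprints or TE; Fbl and Rrs1 were not tested and have no point.

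Footprints did not separate the groups at the threshold. Of the 33 tested members 0 passed, against 1.05% of all tested genes. At an unadjusted p under 0.05 limma had 0 members higher and 1 lower, against 5.84% and 12.4% of all tested genes. With limma-voom on recovered reads 0 passed as well. Their median footprint difference was 0.312, while that of all tested genes was -0.134, and 26 members lay above 0, against 42.6% of all tested genes. For 16 members both KO-labelled libraries lay above both WT libraries and for 4 both lay below, where all tested genes had 20.5% and 32.1%. Without KO replicate 2 the members' median was 0.069 and that of all tested genes -0.222. Nop10 and Pes1 then passed as lower, where 1094 of the 6384 tested genes passed in either direction. Without KO replicate 1 the medians were 0.4 and -0.047. Summed over all 35 members, footprints took 4921 and 4581 CPM in WT and 4636 and 5876 CPM in the KO-labelled libraries, so the groups overlapped. The summed RNA of the members was 1192 and 1218 RPKM in WT and 1494 and 1465 RPKM in the KO-labelled libraries, which did not overlap. RPKM is scaled to gene length and CPM is not, so the sums weight the members differently and cannot be set against each other. The short genes Nhp2, Npm1 and Nop10 had the highest RNA levels of the members and were higher in both KO-labelled libraries.

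In TE 0 of 33 members passed (limma; 0 higher and 1 lower at an unadjusted p under 0.05), and 0% of all tested genes did, with 3.02% higher and 9.99% lower at an unadjusted p under 0.05. The median TE difference was 0.016 for the members and -0.152 for all tested genes, and 19 of 33 members lay above 0, against 40.4% of all tested genes. With each library centred on its median the values were 0.152 and -0.016. The members' median was -0.126 without KO replicate 2, where Nop10 passed as lower, and 0.229 without KO replicate 1, so it had no settled sign. Values of 11 members lay higher in both KO-labelled libraries and of 8 members lower in both (15.6% and 32.3% of all tested genes). In the authors' deposited table, 11 of the 35 members have a p-value under 0.05, as do 20.9% of all its 16442 genes. Only 10536 of those genes had footprints in 2 or more libraries, and the share among the tested genes was not computed, so the shares are of unlike sets. By the mean of the TE values, the KO-labelled libraries were higher for 7 of these 11 and lower for 4. For most genes that column equals a one-sided p in the direction seen, with no adjustment for the number of genes.

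**Figure D2:**
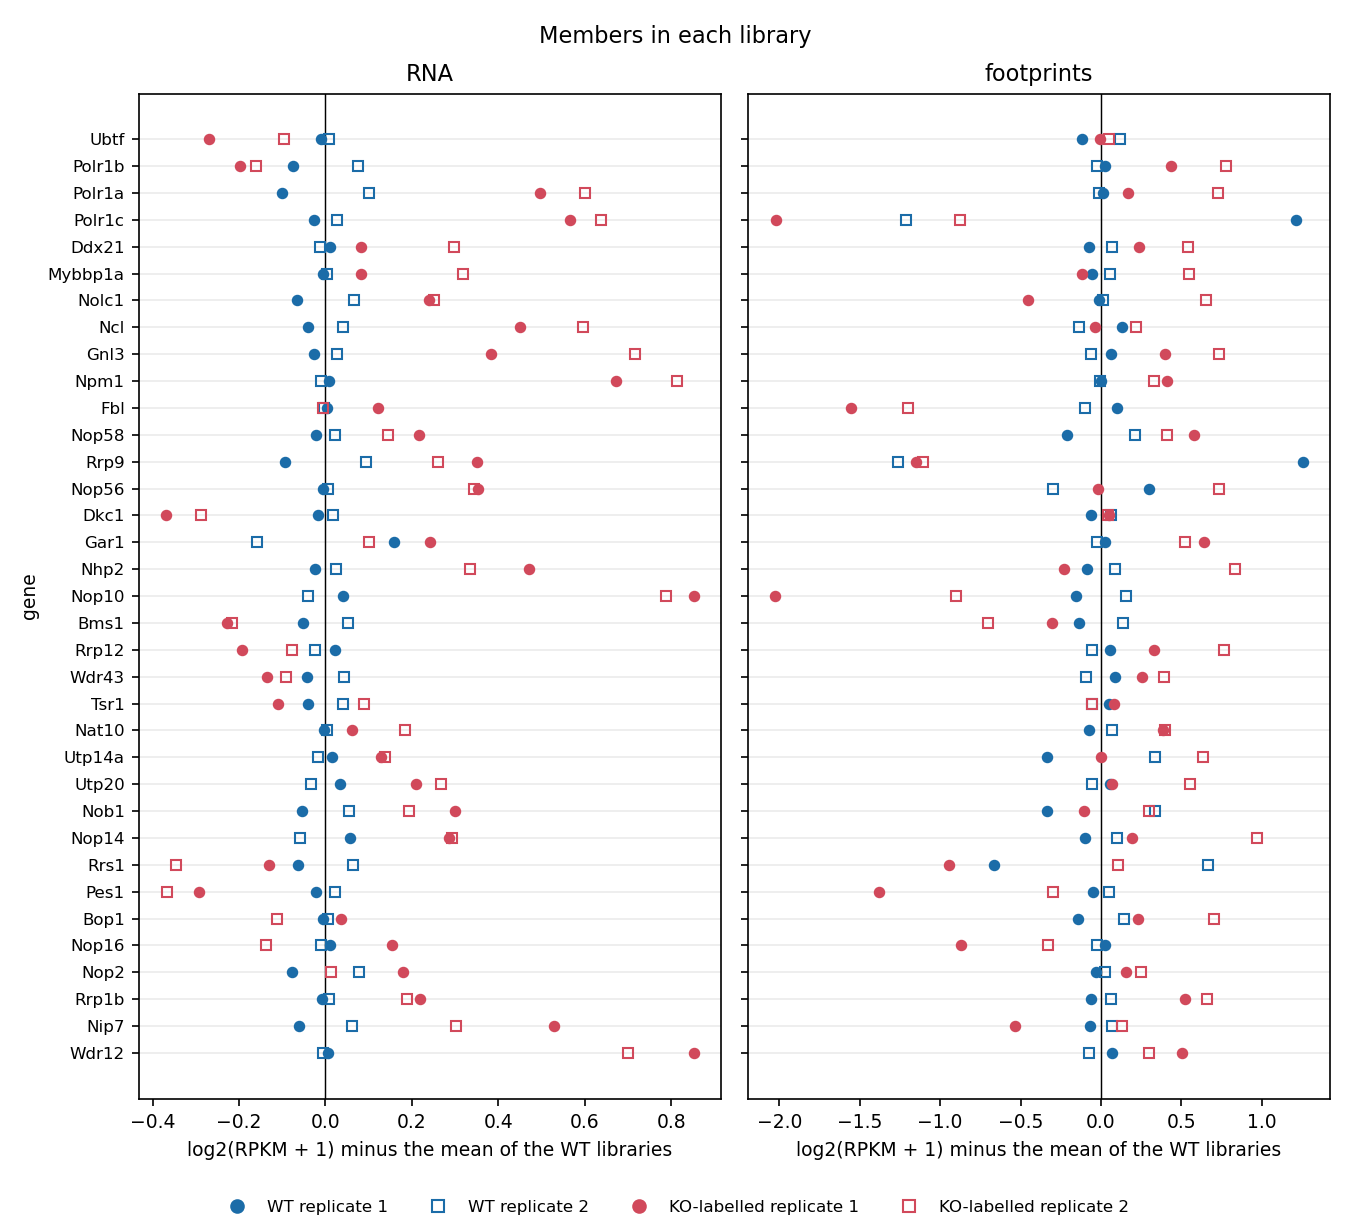
RNA (left) and footprints (right) of each member in each of the 4 libraries, as log2(RPKM + 1) minus the mean of the WT libraries; blue points are WT, red points KO-labelled, filled circles replicate 1 and open squares replicate 2. Polr1c and Rrp9 footprints stand far right in WT replicate 1 alone, and the red points of Nop10, Npm1 and Wdr12 lie right of both blue points in RNA.

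Promoter sequences are shown for examples of members that rose or fell in RNA. They are also shown for the MYC-type E-box, since MYC is the textbook regulator of these genes. RefSeq (GRCm38.p6) windows of 250 bases before to 50 bases after the start matched 30 of the 35 members. On either strand the E-box CACGTG stood in the windows of 6 of these 30 members, or 20%, against 8.09% of all genes with a window. Those are 27025 genes, whether tested here or not, and the share among the tested genes was not computed. Whether the share of any motif below is particular to the members was therefore not tested. None of the 14 members with a window whose RNA rose held it, while 1 of 3 that fell (Pes1) and 5 of 13 others (Mybbp1a, Nop2, Tsr1, Utp20 and Wdr43) did. In 4 of these genes the E-box had 12 bases of window on either side, shown here with its letters in capitals.
Nop2 (chr6:125131811-125131840, plus strand): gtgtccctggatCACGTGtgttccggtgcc
Pes1 (chr11:3963965-3963994, plus strand): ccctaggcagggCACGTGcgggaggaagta
Tsr1 (chr11:74898092-74898121, plus strand): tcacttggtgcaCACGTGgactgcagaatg
Wdr43 (chr17:71616220-71616249, plus strand): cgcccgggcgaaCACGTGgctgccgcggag
The E-box began 60 bases before the start in Nop2 and 2, 24 and 17 bases after it in Pes1, Tsr1 and Wdr43. RNA of Myc was 129 and 142 in WT against 156 and 132 in the KO-labelled libraries, with overlapping groups and a difference of 0.08 ± 0.09 (SE, limma adjusted p = 0.492).

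The ETS motif CCGGAAG stood in 8 of 30 member windows, or 26.7%, against 9.93% of all genes with a window, tested or not. The GC box GGGCGG stood in 21 of 30, or 70%, against 38.2% of the same genes. Of the members whose RNA rose, 4 of 14 held the ETS motif and 10 of 14 the GC box, and of the 3 that fell 1 and 0. The 150 bases before the start are printed for Nop10 and Polr1c, which rose, and for Pes1, which fell, with any of the 3 motifs in capitals.
Nop10 (chr2:112261776-112261925, plus strand): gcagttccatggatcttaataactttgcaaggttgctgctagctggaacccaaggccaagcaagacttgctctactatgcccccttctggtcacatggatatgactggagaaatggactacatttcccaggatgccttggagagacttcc
Polr1c (chr17:46248046-46248195, minus strand): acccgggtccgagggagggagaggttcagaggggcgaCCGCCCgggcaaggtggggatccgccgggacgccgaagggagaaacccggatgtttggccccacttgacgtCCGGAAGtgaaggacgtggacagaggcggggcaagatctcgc
Pes1 (chr11:3963825-3963974, plus strand): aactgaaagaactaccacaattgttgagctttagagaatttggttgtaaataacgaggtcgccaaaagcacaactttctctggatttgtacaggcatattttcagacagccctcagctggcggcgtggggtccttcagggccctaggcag
The Polr1c sequence holds 1 GC box and 1 ETS motif, 68% of its bases are G or C, and the Nop10 and Pes1 sequences hold none of the 3 motifs, with 48.7% and 47.3% G or C. These 3 genes are examples. Not printed are Gnl3, which rose and held 3 GC boxes in its 150 bases, and Dkc1, which fell. Dkc1 held none of the 3 motifs, with 62% G or C. Wdr12 and Npm1, which rose more than Polr1c, are not printed either. A match is a description of these letters, not of binding.

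Of the 4 genes of RNA polymerase I transcription, 2 rose in RNA and 0 passed in footprints. Of all tested genes 33.1% rose in RNA, 27.7% fell and 1.05% passed in footprints. Each role group holds few genes, and none was tested against these shares. Polr1a encodes the largest subunit of the enzyme. Its RNA was 3.67 and 4.37 in WT against 6.06 and 6.59 in the KO-labelled libraries (RPKM), with no overlap, a difference of 0.55 ± 0.10 (SE, limma adjusted p = 0.00272). Its footprints were 19 and 18.6 in WT against 21.3 and 31.8 in the KO-labelled libraries, higher in both KO-labelled libraries by a difference of 0.45 ± 0.36 (SE, limma adjusted p = 0.556).

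Polr1c, a subunit shared with RNA polymerase III, had the most uneven WT footprints of these 4 genes. RNA of Polr1c was 12.1 and 12.6 in WT against 18.8 and 19.8 in the KO-labelled libraries (RPKM), a difference of 0.60 ± 0.07 (SE, limma adjusted p = 0.000379). Its footprints were 246 and 44.9 in WT against 25.3 and 57.1 in the KO-labelled libraries (RPKM), from 235, 32, 10 and 17 reads. WT replicate 1 alone was high, and WT replicate 2 lay between the KO-labelled libraries. The footprint difference was -1.45 ± 0.91 (SE, limma adjusted p = 0.471), and -0.23 without WT replicate 1. The TE of Polr1c was 18.9 and 3.37 in WT against 1.33 and 2.79 in the KO-labelled libraries, again high in WT replicate 1 alone, with a difference of -2.05 ± 0.91 (SE, limma adjusted p = 0.429) that was -0.81 without that library.

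Polr1b, the second-largest subunit, ran the other way. Its RNA was 5.74 and 6.49 in WT against 5.19 and 5.36 in the KO-labelled libraries (RPKM), lower in both KO-labelled libraries but not past the threshold (limma adjusted p = 0.122). Its footprints were 15.8 and 15.3 in WT against 21.4 and 27.4 in the KO-labelled libraries (RPKM), both higher, with a difference of 0.61 ± 0.34 (SE, limma adjusted p = 0.42), the largest upward footprint difference among the members. The TE of Polr1b was 2.5 and 2.17 in WT against 3.62 and 4.47 in the KO-labelled libraries, a difference of 0.79 ± 0.32 (SE, limma adjusted p = 0.402), again the largest upward value among the members. Ubtf, the factor that binds the ribosomal DNA and recruits the polymerase, had RNA of 22 and 22.3 in WT against 18.2 and 20.7 in the KO-labelled libraries (RPKM; limma adjusted p = 0.0864) and overlapping footprints of 33.6 and 39.9 in WT against 36.6 and 37.9 in the KO-labelled libraries (RPKM).

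Among 6 nucleolar scaffold and multifunctional proteins, 4 rose in RNA, 2 did not pass, and all 6 lay above 0 in both RNA and footprints. Of all tested genes 33.1% rose in RNA, and 53.8% lay above 0 in RNA and 42.6% in footprints. Ncl encodes nucleolin, an abundant RNA-binding protein of the nucleolus, and had the highest footprint level of the members in each of the 4 libraries. RNA of Ncl was 47.9 and 50.8 in WT against 67.8 and 75.1 in the KO-labelled libraries (RPKM), 1.44-fold on the fitted scale, a difference of 0.52 ± 0.08 (SE, limma adjusted p = 0.000835). Its footprints overlapped, at 578 and 479.9 in WT against 514 and 612 in the KO-labelled libraries (RPKM), from 1076, 668, 397 and 356 reads. The footprint difference was 0.09 ± 0.27 (SE, limma adjusted p = 0.879), and turned to -0.042 without WT replicate 2 and -0.035 without KO replicate 2. Its TE was 11.8 and 9.29 in WT against 7.49 and 8.06 in the KO-labelled libraries, lower in both KO-labelled libraries, with a difference of -0.43 ± 0.32 (SE, limma adjusted p = 0.599).

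Npm1 encodes nucleophosmin, a ribosome and histone chaperone that is often mutated in human acute myeloid leukaemia. RNA of Npm1 was 119.5 and 118 in WT against 189.9 and 209 in the KO-labelled libraries (RPKM), 1.67-fold on the fitted scale, a difference of 0.74 ± 0.07 (SE, limma adjusted p = 0.000127). Its footprints were 146 and 146 in WT against 195 and 184 in the KO-labelled libraries (RPKM), higher in both, with a difference of 0.37 ± 0.25 (SE, limma adjusted p = 0.498). The TE of Npm1 was 1.22 and 1.23 in WT against 1.03 and 0.879 in the KO-labelled libraries, lower in both, with a difference of -0.37 ± 0.34 (SE, limma adjusted p = 0.665). Npm1 has near-identical pseudogenes in the mouse genome, and the sources used here do not say how reads that fit several places were counted, so its levels are uncertain.

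Gnl3, or nucleostemin, a GTPase of stem and tumour cells, had RNA of 12.6 and 13.1 in WT against 17 and 21.7 in the KO-labelled libraries (RPKM), a difference of 0.55 ± 0.11 (SE, limma adjusted p = 0.00453), and its footprints of 57.6 and 52.7 in WT against 72.9 and 92.3 in the KO-labelled libraries were higher in both KO-labelled libraries without passing (limma adjusted p = 0.394). Nolc1, a chaperone of snoRNPs, had RNA of 31.3 and 34.4 in WT against 38.9 and 39.3 in the KO-labelled libraries (RPKM) and rose by 0.24 (limma adjusted p = 0.0208). The KO-labelled libraries lay on both sides of WT in Nolc1 footprints, at 77.4 and 78.6 in WT against 56.7 and 123 in the KO-labelled libraries (RPKM). Ddx21, an RNA helicase of the nucleolus, and Mybbp1a, a MYB-binding nucleolar protein, were higher in RNA in both KO-labelled libraries but did not pass, with differences of 0.19 and 0.20 (limma adjusted p = 0.0992 and 0.0881).

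Box C/D snoRNPs methylate the precursor rRNA, and 2 of the 3 tested members rose in RNA, against 33.1% of all tested genes. Fbl encodes fibrillarin, the methyltransferase itself. RNA of Fbl was 33.2 and 33.1 in WT against 36.1 and 33 in the KO-labelled libraries (RPKM), so the groups overlapped, and with genes filtered on RNA instead the difference was 0.06 ± 0.07 (SE, limma adjusted p = 0.516). Its footprints were few, 17, 11, 2 and 2 reads or 19.7 and 17.1 in WT against 5.6 and 7.44 in the KO-labelled libraries (RPKM), low in both KO-labelled libraries. Pooled over each group, 28 reads in WT against 4 gave a ratio of 2.91, WT over KO-labelled, with an exact 95% interval of 1.02 to 11.4 that covers counting error only. The TE of Fbl was 0.606 and 0.531 in WT against 0.178 and 0.248 in the KO-labelled libraries, below 1 in every library.

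Nop56 and Nop58 are the paired scaffold proteins of this snoRNP. Nop56 RNA was 63.5 and 64.1 in WT against 81.7 and 81.2 in the KO-labelled libraries (RPKM), a difference of 0.35 ± 0.06 (SE, limma adjusted p = 0.0022), while its footprints of 98.4 and 64.7 in WT against 78.6 and 133 in the KO-labelled libraries overlapped. Nop58 did not pass in RNA, at 0.18 (limma adjusted p = 0.0593), and its footprints of 98.4 and 133 in WT against 171 and 152 in the KO-labelled libraries were higher in both KO-labelled libraries (limma adjusted p = 0.449).

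Rrp9, a protein of the U3 snoRNP that guides early cleavage, resembled Polr1c in that WT replicate 1 stood apart. Its RNA was 16.9 and 19.4 in WT against 23.4 and 21.9 in the KO-labelled libraries (RPKM), without overlap, and rose by 0.31 ± 0.09 (SE, limma adjusted p = 0.018). Its footprints were 96.7 and 16 in WT against 17.3 and 17.9 in the KO-labelled libraries (RPKM), from 121, 15, 9 and 7 reads, so WT replicate 2 was at the level of the KO-labelled libraries. The footprint difference of -1.13 ± 0.87 (SE, limma adjusted p = 0.542) became 0.13 without WT replicate 1. The TE of Rrp9 was 5.45 and 0.836 in WT against 0.753 and 0.826 in the KO-labelled libraries, with WT replicate 1 alone high, and its difference of -1.44 ± 0.92 (SE, limma adjusted p = 0.538) became -0.08 without it.

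Box H/ACA snoRNPs turn uridines of rRNA into pseudouridine and also stabilise telomerase RNA. Of their 4 core proteins Nop10 and Nhp2 rose in RNA, Dkc1 fell and Gar1 did not pass. Among all tested genes 33.1% rose and 27.7% fell, so such a mix is not particular to this complex. Nop10 is the smallest protein of the complex, and its coding length of 192 bases was the shortest of the members. RNA of Nop10 was 88.1 and 83.4 in WT against 156 and 149 in the KO-labelled libraries (RPKM), 1.77-fold on the fitted scale, a difference of 0.82 ± 0.07 (SE, limma adjusted p = 5.59e-05), the largest among the members. Its promoter is the first of the 3 upstream sequences printed above. In footprints its difference was the lowest of the members, from levels of 160.2 and 198 in WT against 42.9 and 95 in the KO-labelled libraries (RPKM). These rested on 27, 25, 3 and 5 reads.

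Both KO-labelled libraries lay below both WT libraries in Nop10 footprints. The difference was -1.47 ± 0.46 (SE, limma adjusted p = 0.21), with an unadjusted p of 0.0263, and it lay between -2.03 and -0.90 when single libraries were left out. The pooled ratio of 52 to 8 reads was 2.7, WT over KO-labelled, with an exact 95% interval of 1.28 to 6.59 that covers counting error only. The TE of Nop10 was 1.81 and 2.36 in WT against 0.28 and 0.641 in the KO-labelled libraries, a difference of -2.29 ± 0.52 (SE, limma adjusted p = 0.289) with an unadjusted p of 0.00744. As for the footprints, the filter it met through WT alone bears on these values. Of the alternatives run, it passed only without KO replicate 2, with a limma adjusted p of 0.0227, and the range over its other alternatives was 0.0929 to 0.9995.

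Dkc1 encodes dyskerin, the pseudouridine synthase of the complex. RNA of Dkc1 was 40.9 and 42 in WT against 31.9 and 33.7 in the KO-labelled libraries (RPKM), lower in both KO-labelled libraries, and fell by 0.33 on the log2 scale (SE 0.07, limma adjusted p = 0.00435). Its footprints overlapped, at 90.4 and 98.7 in WT against 97.7 and 97.3 in the KO-labelled libraries (RPKM). Nhp2, an RNA-binding core protein, had the highest RNA level of the members and rose from 179 and 185 in WT to 253 and 229.8 RPKM, a difference of 0.40 ± 0.07 (SE, limma adjusted p = 0.0027). Its KO-labelled footprints lay on both sides of WT, at 79.4 and 89.6 in WT against 71.8 and 151 in the KO-labelled libraries (RPKM).

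Gar1, the fourth core protein, had overlapping RNA of 20.2 and 16 in WT against 21.4 and 19.3 in the KO-labelled libraries (RPKM). Its footprints were 59.2 and 57.2 in WT against 91.2 and 84.2 in the KO-labelled libraries (RPKM), both higher, with a difference of 0.58 ± 0.27 (SE, limma adjusted p = 0.349) and an unadjusted p of 0.0877. Within this complex the footprints of Nop10 and Gar1 therefore lay on opposite sides of 0, but neither passed and the difference between them was not tested.

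**Figure D3:**
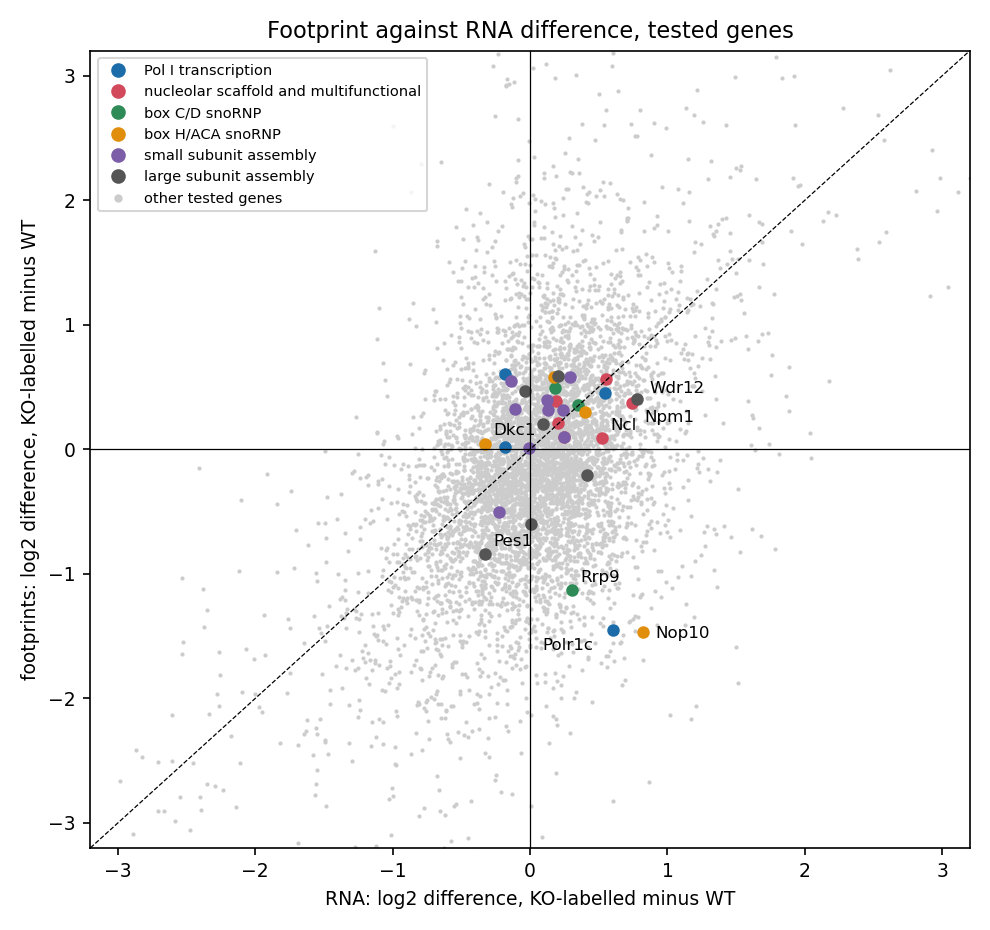
Footprint difference against RNA difference, both log2 and KO-labelled minus WT, for the 33 tested members (coloured by role) and all other tested genes (grey); 139 genes lie outside the axes, and the dashed line marks equal differences. Of the members, 19 lie above 0 on both axes, 5 in RNA alone, 7 in footprints alone and 2 on neither, and the same counts over all tested genes were not made. Nop10, Polr1c and Rrp9 have the lowest footprint differences of those 5. Nop10 met the filter through WT alone, and Polr1c and Rrp9 footprints were high in WT replicate 1 alone.

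Small subunit assembly was the group with the smallest share of RNA calls: of 9 tested members 2 rose, 1 fell and 6 did not pass. Of all tested genes 33.1% rose and 27.7% fell. Nop14, a component of the small subunit processome, had RNA of 17.9 and 16.4 in WT against 21.1 and 21.2 in the KO-labelled libraries (RPKM), a difference of 0.29 ± 0.07 (SE, limma adjusted p = 0.0117). Nob1, the nuclease that makes the final cut of the small subunit rRNA, had RNA of 15.8 and 17 in WT against 20.4 and 18.9 in the KO-labelled libraries (RPKM), higher in both, and rose by 0.25 ± 0.08 (SE, limma adjusted p = 0.0289). Bms1, a GTPase of the processome, had RNA of 11.9 and 12.8 in WT against 10.4 and 10.5 in the KO-labelled libraries (RPKM), both lower, with a difference of -0.22 ± 0.08 (SE, limma adjusted p = 0.0399). It was the only member of the group with lower footprints in both KO-labelled libraries, at 31.3 and 38 in WT against 27.8 and 20.8 in the KO-labelled libraries (RPKM; limma adjusted p = 0.497).

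Footprints of Rrp12, which takes part in subunit export, were 20.8 and 19.2 in WT against 25.5 and 34.7 in the KO-labelled libraries (RPKM), higher in both KO-labelled libraries, while its RNA of 12 and 11.6 in WT against 10.2 and 11.1 in the KO-labelled libraries (RPKM) was lower in both without passing. Its TE of 1.68 and 1.61 in WT against 2.37 and 2.95 in the KO-labelled libraries was higher in both KO-labelled libraries, with a difference of 0.69 ± 0.32 (SE, limma adjusted p = 0.446). The acetyltransferase Nat10, the processome proteins Utp20, Utp14a and Wdr43 and the late assembly factor Tsr1 had RNA differences between -0.11 (Wdr43) and 0.24 (Utp20) and did not pass. Their footprint differences lay between 0.01 (Tsr1) and 0.39 (Nat10). Utp20 had the lowest RNA level of the tested members in every library, 2.01 to 2.71 RPKM.

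For large subunit assembly, of 7 tested members 3 rose in RNA, 1 fell and 3 did not pass. Among all tested genes 33.1% rose and 27.7% fell, so calls in both directions are not particular to this group. Wdr12, which rose, and Pes1, which fell, belong to a single complex. Bop1, Pes1 and Wdr12 form the PeBoW complex, which is needed to process the large subunit rRNAs. RNA of Wdr12 was 14.7 and 14.6 in WT against 27.3 and 24.5 in the KO-labelled libraries (RPKM), 1.71-fold on the fitted scale, a difference of 0.78 ± 0.08 (SE, limma adjusted p = 0.000156). That of Pes1 was 67.9 and 70.1 in WT against 56.2 and 53.3 in the KO-labelled libraries (RPKM), lower in both, a difference of -0.33 ± 0.07 (SE, limma adjusted p = 0.00391). RNA of Bop1 overlapped, at 35.9 and 36.2 in WT against 37 and 33.3 in the KO-labelled libraries (RPKM).

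The footprints of the 3 PeBoW genes showed the same order for Wdr12 and Pes1 but did not pass. Wdr12 footprints were 63.7 and 57.6 in WT against 86.6 and 74.7 in the KO-labelled libraries (RPKM), higher in both KO-labelled libraries, and Pes1 footprints were 83.9 and 89.8 in WT against 32.7 and 70.3 in the KO-labelled libraries (RPKM), lower in both. The Pes1 difference was -0.84 ± 0.45 (SE, limma adjusted p = 0.402), and Pes1 passed without KO replicate 2. Bop1 footprints were 37.3 and 45.8 in WT against 48.8 and 68.1 in the KO-labelled libraries (RPKM), higher in both. The TE of Bop1 was 1.04 and 1.26 in WT against 1.31 and 2.02 in the KO-labelled libraries, again higher in both, a difference of 0.51 ± 0.38 (SE, limma adjusted p = 0.602).

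Nip7, a factor of early large subunit particles, had RNA of 15.4 and 16.8 in WT against 23.6 and 20 in the KO-labelled libraries (RPKM) and rose by 0.41 ± 0.10 (SE, limma adjusted p = 0.00771). Its footprints of 141 and 155 in WT against 102 and 162 in the KO-labelled libraries (RPKM) overlapped. RNA of Rrp1b was 10.6 and 10.7 in WT against 12.6 and 12.3 in the KO-labelled libraries (RPKM), higher in both, and rose by 0.20 ± 0.07 (SE, limma adjusted p = 0.0442), a call it lost in 7 of the 13 alternative fits. Footprints of Rrp1b were 18.3 and 20 in WT against 27.9 and 30.8 in the KO-labelled libraries (RPKM), higher in both, with a difference of 0.59 ± 0.31 (SE, limma adjusted p = 0.404). Nop16 had overlapping RNA, a difference of 0.01, and footprints of 182 and 176 in WT against 97.4 and 142 in the KO-labelled libraries (RPKM), lower in both (limma adjusted p = 0.393).

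Nop2, a methyltransferase of the large subunit rRNA, overlapped in RNA and had footprints of 51.6 and 53.7 in WT against 58.8 and 62.8 in the KO-labelled libraries (RPKM; limma adjusted p = 0.74). Rrs1 had 9, 18, 3 and 5 footprint reads, too few to test, and RNA of 62 and 67.9 in WT against 59.2 and 50.8 in the KO-labelled libraries (RPKM). With genes filtered on RNA instead, the RNA difference of Rrs1 was -0.24 ± 0.10 (SE, limma adjusted p = 0.0879).

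The TE differences of the members went with coding length, as read from the RPKM steps, which may be too small by a common factor in some genes. Pearson's r between the TE difference and log2 coding length was 0.592 over the 33 members (Spearman's rho 0.493) and 0.229 over all tested genes (rho 0.241), and 0.409 over 32 members without Nop10. Nop10 met the filter through the WT libraries alone, so its low TE difference is in part set by the filter. Genes are not independent replicates, and all points share the same 4 libraries. RNA, which enters TE, ran the other way in the members, with r = -0.433 (-0.304 without Nop10) against -0.018 over all tested genes. The median RNA difference was 0.402 in members under 750 bases and 0.133 in those of 2000 and over. The 5 tested members under 750 bases (Nop10, Nhp2, Nip7, Nop16 and Gar1) had a median TE difference of -0.606, and the 1008 tested genes of that length -0.688. For the 19 members of 2000 bases and over it was 0.184, against -0.039 for 2345 genes. In footprints the corresponding medians of the short genes were -0.204 and -0.473, and of the long genes 0.322 and 0.016.

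**Figure D4:**
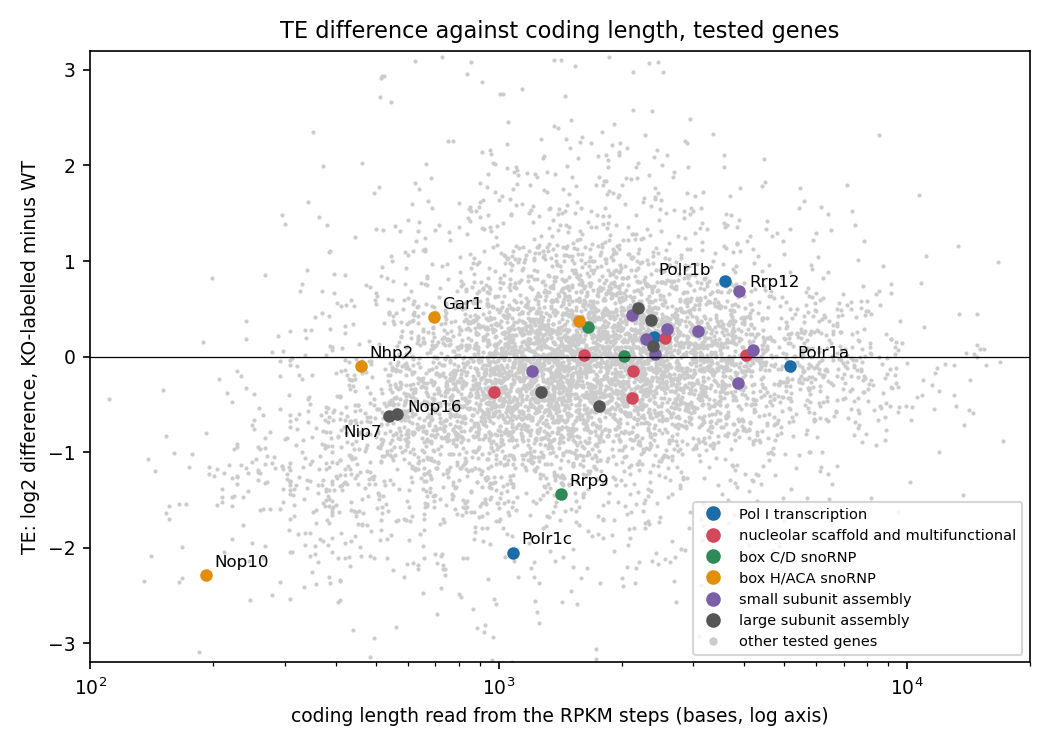
TE difference (log2, KO-labelled minus WT) against coding length in bases (log axis) for the 33 tested members, coloured by role, and all other tested genes in grey; 34 genes lie outside the axes. Nop10, at 192 bases, is both the shortest member and the lowest, at -2.29, while Polr1b and Rrp12 have the highest values, 0.79 and 0.69. Nop10 met the filter through WT alone, so its value is in part set by the filter.

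A wider list of ribosome assembly factors gives the setting of the members. Of 132 further factors in the table, 115 were tested. In RNA 31 of them rose, 24 fell and 60 did not pass, so 27% rose and 20.9% fell, against 33.1% and 27.7% of all tested genes. Their median RNA difference was 0.042, close to the 0.043 of all tested genes. In footprints 0 of the 115 passed (limma; 0 higher and 6 lower at an unadjusted p under 0.05, against 5.84% and 12.4% of all tested genes), with a median of -0.080. In TE 0 passed (limma; 0 higher and 10 lower at an unadjusted p under 0.05, against 3.02% and 9.99%), with a median of -0.134. By role, 13 of 49 large subunit factors rose and 8 fell, 10 of 43 small subunit factors rose and 13 fell, 5 of 13 exosome and trimming factors rose and 1 fell, and 2 of 5 snoRNP assembly factors rose and 0 fell. Of 5 tested genes of RNA polymerase I transcription 1 rose and 2 fell.

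The 2 highest and 2 lowest RNA differences of the wider list are given with their values. Tsr3, an rRNA modification enzyme, had RNA of 33.6 and 33.4 in WT against 55.6 and 56 in the KO-labelled libraries (RPKM), a difference of 0.72 ± 0.06 (SE, limma adjusted p = 7.43e-05). Mphosph10, a processome protein, had 29.6 and 31.6 in WT against 49.5 and 46 in the KO-labelled libraries (RPKM), a difference of 0.63 ± 0.07 (SE, limma adjusted p = 0.000302). Lowest was Zfp622, a late large subunit factor, with 7.64 and 4.35 in WT against 2.74 and 3.13 in the KO-labelled libraries (RPKM), a difference of -0.79 ± 0.20 (SE, limma adjusted p = 0.0124), then Ddx54, an RNA helicase, with 17.3 and 17.8 in WT against 11.3 and 10.8 in the KO-labelled libraries (RPKM), a difference of -0.62 ± 0.07 (SE, limma adjusted p = 0.000329).

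Ribosomal proteins are the cargo of this machinery, and cell cycle genes mark dividing cells. Of 38 tested cytosolic ribosomal protein genes 36 rose in RNA and 0 fell, with a median RNA difference of 0.537, a footprint median of 0.045 and a TE median of -0.499, against 0.201, 0.312 and 0.016 for the members. The tested ribosomal protein genes were 38 of the 78 in the table, and many have near-identical pseudogenes, so their levels are uncertain. Of 15 cell cycle genes 10 rose in RNA and 0 fell, with medians of 0.355 in RNA, 0.499 in footprints and 0.098 in TE. The summed RNA of the cell cycle genes was 927 and 974 RPKM in WT and 1228 and 1164 RPKM in the KO-labelled libraries, and its part in the members' results was not tested. Of all tested genes 33.1% rose in RNA and 27.7% fell.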

How the data were processed

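Ribosome footprints and TE were analysed in 4 libraries, 2 WT and 2 KO. The authors' deposited footprint values behaved as RPKM plus 1, as read from the values, and the deposited TE is their ratio to input RNA floored in the same way. The submitters' processing notes list HISAT2 2.1.0, featureCounts, CASAVA and DESeq2 without saying what each did, and hg38, a human build, while the symbols are those of mouse genes. Per the labels, micrococcal nuclease (10 µg/ml, 30 minutes) cut the lysates, and fragments of 25 to 40 nucleotides were sequenced. The authors' p-value column is called adjusted in its header, but for 16250 of the 16442 genes it equalled, within 1e-06, a one-sided, equal-variance comparison of TE without adjustment.

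Whole footprint reads and gene lengths were read from the RPKM steps of 10536 genes, those with reads in 2 or more libraries. Of these 100% came out whole within 0.002 reads. For a gene with reads in only 2 libraries this is no check, since enough multipliers were tried that 1 always fits. For 446 genes the smallest fitting length was multiplied to reach a whole number of bases, and for 10 it stayed fractional. Input reads are the smallest whole numbers that fit and may be too small by a common factor. Apart from the step above, footprint reads and lengths were found in the same way and have the same limit. It can also keep a gene below the filter. Utp18 of the wider list had 4 and 3 reads in WT and 2 and 1 in KO, at 35.8, 35.9, 43.1 and 28.6 RPKM, and was not tested. The input depths lay within 1.12-fold. RNA is the footprint value over TE, minus 1.

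Groups were compared with limma 3.58.1 (R 4.3.3, mean-variance trend) on log2(RPKM + 1), two-sided, group as the only term, with Benjamini-Hochberg adjustment over 6384 genes; TE was fitted as the log2 ratio per library. Fold changes on this scale understate low genes. Scripts ran under Python 3.11.15 and were tested on simulated data. Members, lists and rules were chosen with earlier results of these data known. Every member is named; values in every library are given for the 3 highest and 3 lowest differences per measure, Ncl, Npm1, Fbl and others that illustrate a group. Of the wider list, the 2 highest and 2 lowest in RNA are named.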

Additional observations from a re-analysis of the deposited data

How the results depend on the processing

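RNA counts of members that rose were 12 to 16 and of members that fell 2 or 3 under another pseudocount, filter, scaling or variance model, as planned or, for a filter on RNA of 1 RPKM, added after seeing the data. With single libraries left out, 9 to 15 rose and 0 to 3 fell. The RNA median was 0.154 with a pseudocount of 5, 0.186 with a filter of 50 CPM and 0.216 with median centring (0.193 to 0.217 without single libraries). Footprint and TE counts were 0 in these settings, except that 0 to 2 members in footprints and 0 to 1 in TE were lower without single libraries, and the TE median ran from -0.126 to 0.229. Without single libraries the difference ran from -2.391 to 0.129 for Rrp9 and -0.042 to 0.225 for Ncl in footprints, and in RNA from -0.109 to 0.089 for Tsr1, -0.138 to 0.154 for Nop16 and -0.111 to 0.036 for Bop1; Tsr1 was at 0.005 with median centring. The cause was not tested.

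The replicate numbers share no stated animal or day. With a replicate block 13 members rose and 2 fell in RNA, and 0 passed in footprints and TE. Nob1, Rrp1b and Bms1 lost their calls. Over all 6384 tested genes 3480 passed in RNA with the block, against 3881 in the main fit. Deviations of same-numbered libraries correlated with r = -0.335 in RNA, and with the crossed pairing, added after seeing the data, 19 members rose and 4 fell. The share of all tested genes that passed with that pairing is not given here, so these counts do not single out the members. Over all genes 67 passed in footprints, but 0 with no filter, 109 with a pseudocount of 5, 120 with 50 CPM, 32 with the block and 0 to 1094 without single libraries, so the background of calls in footprints is itself unsettled. Fits without single libraries take the lone library to vary like the other group. Over all genes TE calls went from 0 to 148 without KO replicate 1 and 698 without KO replicate 2. Quantile normalization moved the footprint median of all genes from -0.134 to -0.019. With limma-voom on recovered reads, also added after seeing the data, 62 genes passed in footprints. TMM scaling, edgeR and DESeq2 were planned on the recovered reads and were not run; limma-voom scaled to library totals was the count method run on them. Depth limits the footprints: the shallowest library had 3.65 RPKM for 1 read per kilobase.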
